A study of Mus musculus with 6 samples.

Results

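The pentose phosphate pathway enzymes were looked up by name in the deposited table of genes that the authors marked as changed between QKI-deficient and control muscle stem cells (MuSCs). Of 11 enzymes named, 3 were among the 398 genes of the table, namely *Tkt*, *Pgls* and *Prps1*. *Taldo1*, *G6pdx*, *Pgd*, *Rpia*, *Rpe*, *Prps2*, *Rbks* and *Tktl1* were not, although all 11 are annotated in GENCODE vM21. The 3 genes were thus selected on the same contrast that is described here, so their values are given as a description, with no test. For the 8 enzymes outside the table no level is given here, and their absence does not show that they were expressed at equal levels.

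MuSCs are the Pax7-positive stem cells of skeletal muscle, and QKI is an RNA-binding protein of their nuclei and cytoplasm that acts on splicing and on the stability of mRNA. The 6 libraries were 3 of QKI-cKO (labelled KO) and 3 of QKI-ctrl (labelled WT) MuSCs. QKI-cKO mice were QKI 2lox/2lox; Pax7 CreERT2/+ and QKI-ctrl littermates were QKI 2lox/2lox; Pax7 +/+, so both carried loxP sites around exon 2 of the *QKI* gene, on a C57BL/6 background. Both received 5 daily injections of 4-hydroxytamoxifen, and the experiments followed 10 d after the last one. The paper states that males and females were both used, matched by sex and age between genotypes. The sex of the mice behind each library is not in the labels. Cre was driven by the *Pax7* promoter, and the loss of QKI therefore always came together with the Cre allele, so the 2 cannot be told apart. Cells of mice aged 6 to 8 wk were sorted as ITGA7+/CD45-/CD11b-/Sca1-/Hoechst+, grown for 72 h in myoblast growth medium, and lysed for bulk paired-end sequencing of polyadenylated RNA. The question was which transcripts differ in MuSCs that lack QKI.

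The pentose phosphate pathway branches from glycolysis at glucose 6-phosphate. Its oxidative branch, run by *G6pdx*, *Pgls* and *Pgd*, makes NADPH for reductive synthesis and for the defence against oxidants, and yields ribulose 5-phosphate. In its reversible branch, *Rpia* and *Rpe* interconvert pentose phosphates, and *Tkt* and *Taldo1* move carbon units between sugars and so link ribose 5-phosphate back to glycolysis. *Prps1* and *Prps2* turn ribose 5-phosphate into phosphoribosyl pyrophosphate, the sugar donor of nucleotide synthesis, and dividing cells such as activated MuSCs draw on both products.

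The 3 genes lie on different chromosomes, and their promoter sequences are printed to show that they also start from windows of unlike composition. Each is the RefSeq window on GRCm38.p6 from 250 bases before to 50 bases after the annotated start, 5′ to 3′ on the strand of the gene, which is the plus strand for all 3. Capitals mark GC boxes (GGGCGG, or CCGCCC where it lies on the other strand) and CCAAT boxes (CCAAT). The window of *Tkt* is chr14:30548881-30549180, that of *Pgls* is chr8:71591934-71592233 and that of *Prps1* is chrX:140456353-140456652.
Tkt: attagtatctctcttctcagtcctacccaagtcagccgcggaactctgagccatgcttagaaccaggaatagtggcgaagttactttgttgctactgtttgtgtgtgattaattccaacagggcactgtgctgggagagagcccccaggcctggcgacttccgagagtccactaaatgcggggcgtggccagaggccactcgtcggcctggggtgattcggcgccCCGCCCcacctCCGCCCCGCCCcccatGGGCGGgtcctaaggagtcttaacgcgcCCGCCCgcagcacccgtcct
Pgls: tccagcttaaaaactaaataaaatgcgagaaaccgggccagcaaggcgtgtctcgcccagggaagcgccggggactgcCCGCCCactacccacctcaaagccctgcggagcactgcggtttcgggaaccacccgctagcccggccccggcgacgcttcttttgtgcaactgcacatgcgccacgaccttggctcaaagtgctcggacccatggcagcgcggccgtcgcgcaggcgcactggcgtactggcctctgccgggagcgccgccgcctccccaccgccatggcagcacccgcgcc
Prps1: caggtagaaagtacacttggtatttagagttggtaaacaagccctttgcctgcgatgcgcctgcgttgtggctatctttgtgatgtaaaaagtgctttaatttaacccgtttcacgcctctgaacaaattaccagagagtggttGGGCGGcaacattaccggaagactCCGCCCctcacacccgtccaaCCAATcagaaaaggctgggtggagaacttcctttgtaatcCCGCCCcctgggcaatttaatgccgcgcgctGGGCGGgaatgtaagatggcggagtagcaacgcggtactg

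The *Tkt* window is 61% G and C with 20 CpG, the *Pgls* window 67.3% with 32 CpG and the *Prps1* window 51.3% with 17 CpG. The median over 32851 RefSeq windows is 52.7% with 7 CpG. *Tkt* has 5 GC boxes, all within 35 bases of the start, and the ones at -14 to -9 and at -9 to -4 share a base. That start is the RefSeq one. In GENCODE the *Tkt* gene begins at 30548359, before the window, which begins at 30548881, so other annotated starts of *Tkt* lie outside it. *Pgls* has 1 GC box and *Prps1* has 4, with 1 CCAAT box at -61 to -57. Over all windows and both strands, 35.7% hold a GC box, 5.49% hold at least 4, 2.71% hold at least 5 and 37.4% hold a CCAAT box. The antioxidant response element, which the oxidant-responsive factor NRF2 binds, was searched as TGACNNNGC on both strands. It was in none of the 3 windows and in 12.4% of all windows. These matches are a description of letters, not of binding sites.

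**Figure D1:**
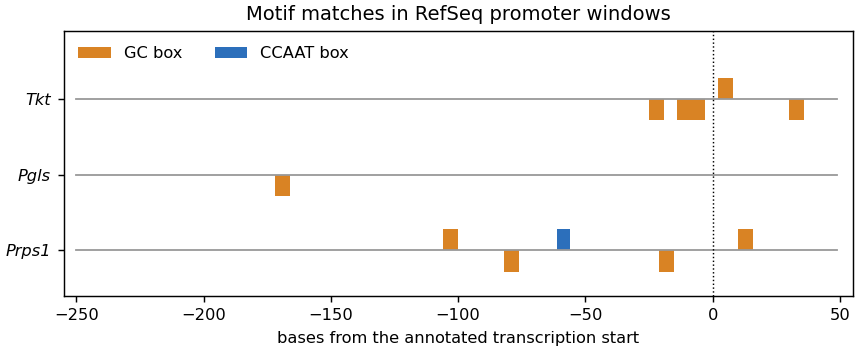
Matches to the GC box (GGGCGG) and the CCAAT box in the RefSeq promoter windows of *Tkt*, *Pgls* and *Prps1*, by distance in bases from the annotated start, which is the dotted line at 0. Blocks above a line are on the strand of the gene and blocks below it on the other strand; the 5 GC boxes of *Tkt* lie around the start, the 1 of *Pgls* lies at -172 to -167.

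Before the enzymes, the targeted gene was looked at. *Qk* was listed at 128 FPKM (a level in sequenced fragments, scaled to transcript length and to depth) in QKI-ctrl and at 262 FPKM in QKI-cKO, a ratio of 2.05. This value covers the whole gene, of which only exon 2 is deleted, so it does not check the labels. Every level in this section is the authors' pooled FPKM of 1 group, so there is no spread over mice, no replicate check and no depth behind any value. In bulk RNA of this kind, fewer cells of a type and less RNA per cell cannot be told apart.

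Transketolase, the thiamine-dependent enzyme that moves 2-carbon units in the reversible branch, had the largest difference of the 3 enzymes. *Tkt* (ENSMUSG00000021957.7, chromosome 14, 30548359 to 30574720 on GRCm38) was at 66.2 FPKM in QKI-ctrl against 189 FPKM in QKI-cKO. The QKI-cKO level was thus higher by 123 FPKM, a ratio of 2.86 and a log2 ratio of 1.51. Among the 398 genes *Tkt* held place 38 by level in QKI-ctrl and place 15 in QKI-cKO. Its transcript Tkt-201 has 14 exons and 3223 nucleotides, of which 1869 are coding.

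6-Phosphogluconolactonase, which opens the lactone made by glucose-6-phosphate dehydrogenase in the oxidative branch, differed by far less. *Pgls* (ENSMUSG00000031807.10, chromosome 8, 71592176 to 71607936 in the table) was at 58.7 FPKM in QKI-ctrl against 74.9 FPKM in QKI-cKO, which was higher by 16.2 FPKM, a ratio of 1.28 and a log2 ratio of 0.35. The span in the table runs past the annotated end of *Pgls* at 71601092 to the end of *Fam129c* on the same strand, which starts at 71597648. Of the 3770 exonic bases of all *Pgls* transcripts, 776 are also exonic in *Fam129c*, and 0 of the 893 bases of Pgls-201 are. How fragments in the shared bases were assigned was not tested, so the value of *Pgls* is uncertain to that extent.

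Phosphoribosyl pyrophosphate synthetase 1, at the exit of the pathway towards nucleotides, was the 1 enzyme with a lower level in QKI-cKO. *Prps1* (ENSMUSG00000031432.3, chromosome X, 140456613 to 140476140) was at 75.1 FPKM in QKI-ctrl against 59.7 FPKM in QKI-cKO. The difference was -15.4 FPKM, and the QKI-ctrl level was 1.26 times the QKI-cKO level, a log2 ratio of -0.33.

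In direction, 2 of the 3 enzymes were higher in QKI-cKO, where 57.3% of the genes of the table were higher, and 1 was lower, where 42.7% were lower. At a limit of 2-fold, *Tkt* alone passed upwards and none passed downwards, where 8.54% of the table was at least 2-fold higher and 10.8% at least 2-fold lower. The median log2 ratio was 0.35 over the 3 enzymes and 0.36 over the table. Since the enzymes were found through this table, nothing is read from these shares.

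**Figure D2:**
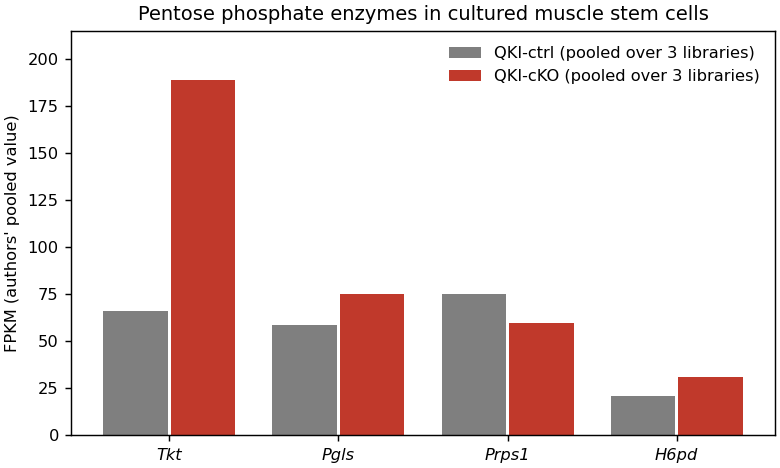
Pooled FPKM (vertical axis, from 0) of *Tkt*, *Pgls*, *Prps1* and the related *H6pd* in QKI-ctrl (grey) and QKI-cKO (red), 1 value per group and so no error bar. *Tkt* goes from 66.2 to 189 FPKM, while the other 3 differ by at most 16.2 FPKM.

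In QKI-ctrl the order of levels was *Prps1*, *Tkt*, *Pgls*, with all 3 between 58.7 and 75.1 FPKM, and without a spread over mice it cannot be said whether neighbours in that order differ. In QKI-cKO the order was *Tkt*, *Pgls*, *Prps1*. The level of *Tkt* was 0.882 times that of *Prps1* in QKI-ctrl and 3.17 times in QKI-cKO. Against *Pgls*, *Tkt* was at 1.13 times in QKI-ctrl and 2.52 times in QKI-cKO. *Pgls* over *Prps1* was 0.782 in QKI-ctrl and 1.26 in QKI-cKO. FPKM are scaled to length, which allows these ratios between genes.

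The 3 levels summed to 200.0 FPKM in QKI-ctrl against 324 FPKM in QKI-cKO, a ratio of 1.62. Without *Tkt* the sum was 133.8 FPKM and 134.6 FPKM, a ratio of 1.01, as the higher level of *Pgls* and the lower level of *Prps1* nearly offset each other. *Tkt* made up 33.1% of the sum in QKI-ctrl and 58.4% in QKI-cKO, and *Prps1* 37.5% and 18.4%.

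Of the 228 genes higher in QKI-cKO, *Tkt* held place 11 by log2 ratio and place 7 by gain in FPKM. The paper counts slightly more genes as up-regulated and slightly fewer as down-regulated, and the reason was not tested. Of the 34 genes at least 2-fold higher, 16 were below 1 FPKM in QKI-cKO, 30 were below 10 FPKM, and 3 were at or above the QKI-ctrl level of *Tkt*. Those 3 were *Tkt*, *Qk* and *Bc1*, a short noncoding RNA best known from neurons, which went from 104 to 309 FPKM. That limit was taken from *Tkt*, which therefore passes it by construction. When only genes that reached 10 FPKM in either group were ranked, *Tkt* held place 2 of 104 by log2 ratio, after *Bc1*. *Pgls* held place 211 of 228 by log2 ratio, and *Prps1* place 162 of the 170 lower genes, both close to the smallest fold in the table, 1.22.

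**Figure D3:**
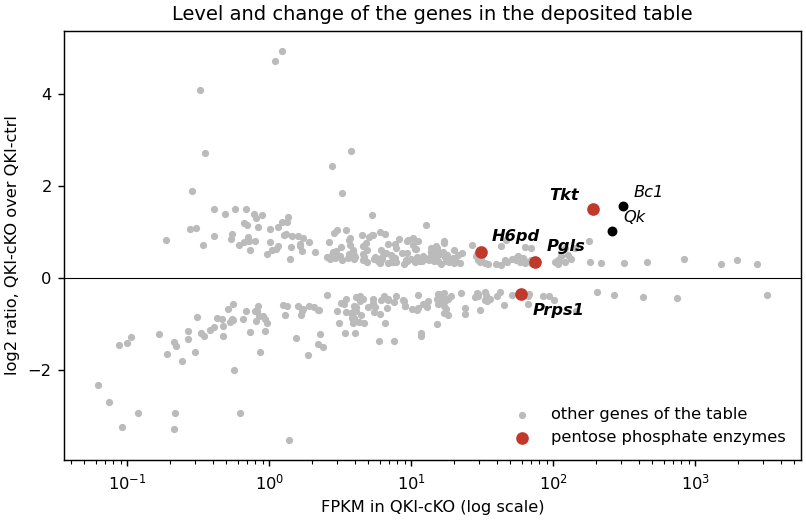
Level in QKI-cKO (horizontal axis, FPKM, log scale) against the log2 ratio of QKI-cKO over QKI-ctrl for the genes of the table with a value above 0 in both groups, with the pentose phosphate enzymes in red and *Bc1* and *Qk* in black. *Tkt* lies at 189 FPKM and 1.51 beside *Bc1*, whereas *Pgls* and *Prps1* lie at 0.35 and -0.33, near the inner edge of the cloud.

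By log2 ratio, the 3 genes nearest to *Tkt*, among named genes that reached 1 FPKM in either group, were *Bc1* (1.58), *Dhrs3* (1.39) and *Krtcap3* (1.33). The likeness is of 1 ratio over 2 pooled values only. *Dhrs3*, a retinaldehyde reductase, was at 2.02 FPKM in QKI-ctrl against 5.28 FPKM in QKI-cKO, and *Krtcap3* at 0.536 and 1.35 FPKM. Both were thus far below *Tkt* in level. The distance of *Dhrs3* from *Pax7* was not computed, and a part of linkage to the Cre allele in its value was not tested. A gain in FPKM at least that of *Tkt* was found for *Rps2*, *S100a4*, *Gm10076*, *Gal*, *Bc1* and *Qk*. Of these, *Rps2*, a protein of the small ribosomal subunit, went from 2185 to 2725 FPKM with a log2 ratio of 0.32.

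The nearest genes of the table beside *Tkt* on chromosome 14 were far away. *Plau*, the urokinase plasminogen activator, ended 9.70 Mb before it and was lower, at 52.0 FPKM in QKI-ctrl and 42.2 in QKI-cKO. *Vstm4* began 2.28 Mb after it and was higher, at 2.27 and 3.16 FPKM. Beside *Pgls*, the transcription factor genes *Jund*, 0.892 Mb before it at 12.5 and 17.2 FPKM, and *Klf2*, 0.711 Mb after it at 4.50 and 6.18 FPKM, were both higher in QKI-cKO, as *Pgls* was. Beside *Prps1*, which was lower, both neighbours were higher. *Fgf13* lay 80.9 Mb before it, at 9.19 and 14.9 FPKM, and *Tsc22d3*, a glucocorticoid-induced leucine zipper gene, began 63387 bases after it, at 8.71 and 12.1 FPKM.

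A wider list held 10 further genes of the pathway, among them isoenzymes, retrocopies and regulators, and 1 of them was in the table. *H6pd* (ENSMUSG00000028980.14, chromosome 4, 149979475 to 150009023) encodes the enzyme that runs the first steps of the oxidative branch inside the endoplasmic reticulum. It was at 20.7 FPKM in QKI-ctrl against 30.8 FPKM in QKI-cKO, a ratio of 1.49 and a log2 ratio of 0.57. *Tkt* over *H6pd* was 3.20 in QKI-ctrl and 6.14 in QKI-cKO. *H6pd* lies 10.1 Mb from *Pax7*, where the Cre allele sits, and a part of that linkage in its value was not tested. Of its neighbours in the table, *Tmem201*, 0.241 Mb away on the side of lower coordinates, was lower in QKI-cKO, at 22.8 and 16.04 FPKM, and the predicted gene *Gm37795*, 0.0594 Mb away on the other side, was higher, at 4.13 and 6.90 FPKM.

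Lists of adjoining metabolism were read in the same way. None of 121 genes in 5 lists was in the table, namely 34 of glycolysis and lactate, 14 of other NADPH sources such as *Me1* and *Idh1*, 37 of nucleotide synthesis and salvage, 14 of thiamine supply and other thiamine-dependent enzymes, and 22 of fatty acid and sterol synthesis. The 398 genes of the table are few beside the 21901 annotated genes with a protein-coding transcript, so nothing is read from these absences. Of 39 genes for glutathione, thioredoxin and NRF2 targets, 3 were in the table. Of these, 1 was higher and 2 were lower, where 57.3% of the table was higher and 42.7% lower. *Sod3*, the extracellular superoxide dismutase, was at 0.452 FPKM in QKI-ctrl against 0.790 FPKM in QKI-cKO. *Hmox1*, the haem-degrading oxygenase, was at 571 and 432 FPKM. *Gpx8*, a peroxidase of the endoplasmic reticulum, was at 110 and 84.4 FPKM. As the table holds only genes marked as changed, a gene outside it may still differ. It may have missed any of the authors' limits on fold change, level or false discovery rate.

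**Figure D4:**
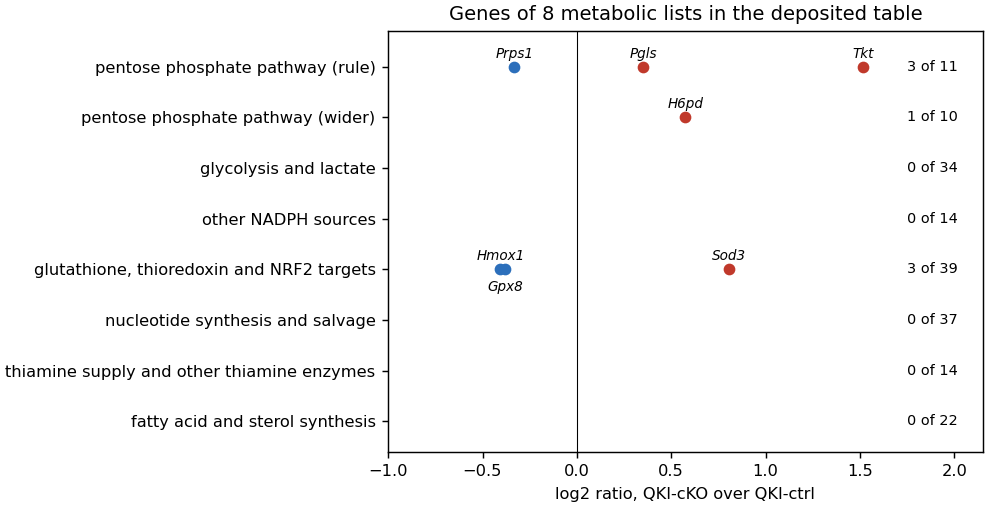
Log2 ratio of QKI-cKO over QKI-ctrl (horizontal axis) for the genes of 8 metabolic lists that are in the table, red where higher and blue where lower in QKI-cKO, with the number in the table of the number listed at the right. *Tkt* lies farthest from 0 at 1.51, and 5 of the lists have no gene in the table.

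The labelled cell type and possible admixture were read from marker lists. Of 18 MuSC and myogenic markers, 2 were in the table and both were lower, where 42.7% of the table was lower, namely *Itga7*, on which the cells were sorted, at 237 and 145 FPKM, and *Vcam1* at 67.1 and 44.9 FPKM. Of 21 contractile genes, 8 were in the table and all 8 were lower, beside the same 42.7%, with a summed level of 46.7 FPKM in QKI-ctrl against 17.9 FPKM in QKI-cKO. That sum covers only the 8 genes selected on the same contrast, no level is given here for the other 13, and the part of contractile differentiation in the value of *Tkt* was not tested. Of 17 macrophage and leukocyte markers only *Laptm5* was in the table, at 12.9 and 19.9 FPKM, and of 9 Schwann cell markers only *Ngfr*, at 5.53 and 10.2 FPKM. No fibro-adipogenic, endothelial or smooth muscle marker was in the table. The part of these cells in the values of *Tkt*, *Pgls* and *Prps1* was not tested, and the level of markers outside the table is not given here.

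Transcripts were compared with those of near-identical genes, since fragments that match more than 1 gene can be split between them. Of the 100-base stretches of the main transcript, none of 3124 in *Tkt*, none of 794 in *Pgls* and none of 4646 in *H6pd* occurred in a transcript of another gene. In *Prps1*, 65 of 1866 stretches (3.48%) were shared with the retrocopy *Prps1l3*, which leaves a small part of its value uncertain. *Tkt* is 66.9% identical to *Tktl1* over 1393 aligned bases and 68.3% to *Tktl2* over 1845. *Prps1* is 80.2% identical to *Prps2* over 950 bases, 87% to *Prps1l1* over 962 and 92.8% to *Prps1l3* over 1500.

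QKI binds RNA at a response element, searched here as ACUAAC or ACUAAU followed after 1 to 20 bases by UAAC or UAAU on the sense strand of spliced transcripts. None of the 20 annotated transcripts of *Tkt*, *Pgls*, *Prps1* and *H6pd* held it, and none held the core of 6 bases alone. Of 21901 genes with a protein-coding transcript, 10.7% held the element and 45.2% the core in at least 1 such transcript. The 20 transcripts also include noncoding ones, so the sets differ in kind. Introns were not searched, and the absence of these letters says nothing of whether QKI acts on these genes.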

How the data were processed

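The 3 QKI-ctrl and 3 QKI-cKO libraries of MuSC RNA were grouped by the genotype in the labels. The paper calls them biological replicates and does not state the number of mice behind each. Upstream, the authors used Trimmomatic for trimming, STAR for alignment to the mm10 (GRCm38) genome and Cufflinks for levels and for their own comparison. The deposited FPKM values were scaled by the authors with the geometric means of fragment counts and pooled into 1 value per group. The table holds 398 genes, all marked as significant, so depth is unknown and no test between samples can be made. The paper states limits on fold change, mean level and false discovery rate for its changed genes. Its fold limits, read as log2, exceed the size of the log2 ratios of *Pgls* and *Prps1*. The smallest fold listed was 1.22, so the table was not cut at those limits read as log2. The table also holds the authors' fold changes, test statistic, p-values and q-values, which were not used. The number of single-sample columns left unused was 0. The first value column was taken as QKI-ctrl. In the second, 6 of 6 genes that the study names as lower were lower, with *Mylpf* taken for the name *Mylph* printed there.

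Differences, ratios and log2 ratios were computed with no pseudocount. Of the IDs, 397 matched GENCODE vM21 without their version. The 3 promoter windows came from RefSeq on GRCm38.p6, matched by symbol. Transcripts were compared with blastn 2.17.0. The search for the response element was tested on simulated sequences with planted elements. The searches for its core alone, for its either-side form and for the promoter motifs were not tested in this way. Python 3.11.15, pandas 2.3.3, numpy 2.4.6 and matplotlib 3.10.9 were used.

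The enzymes and lists were chosen with earlier results of these data known. Named were all enzymes in the table, list genes in the table (at most 5 per metabolic list), the 3 genes nearest to *Tkt* in log2 ratio, those with at least its gain, its neighbours and *Qk*. Genes nearest to *Pgls*, *Prps1* and *H6pd* on the chromosome, the GC and CCAAT boxes, and the genes under other observations were added after values were seen. The alternatives tried were pseudocounts of 0.1 and 1 FPKM, equal summed FPKM, centring on the table median, minimum levels of 1 and 10 FPKM, leaving out predicted genes, lists matched by GENCODE symbol alone (chosen after seeing the data), and a response element with the UAAC or UAAU on either side.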

Additional observations from a re-analysis of the deposited data

How the results depend on the processing

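Pseudocounts of 0.1 and 1 FPKM and scaling to equal summed FPKM kept the direction of *Tkt*, *Pgls*, *Prps1* and *H6pd*, with *Tkt* between 1.44 and 1.51. Centring on the median log2 ratio of the table (0.36) gave *Tkt* 1.15, *Prps1* -0.69 and *H6pd* 0.21, and turned *Pgls* to -0.0115, so that 1 of the 3 enzymes was higher and 2 were lower. The table holds only changed genes, so its median is no neutral reference, and *Pgls* is the enzyme whose direction depends on the scaling. The place of *Tkt* by log2 ratio among higher genes, 11 of 228, was 7 of 200 among genes reaching 1 FPKM in either group and 2 of 104 among those reaching 10 FPKM, 3 with a pseudocount of 1 FPKM, and 5 of 205 without predicted genes and pseudogenes. The limits on level and the removal of predicted genes change this place only by leaving out genes ranked above *Tkt*. A pseudocount shrinks the ratios of genes at low levels most. Of the 34 genes at least 2-fold higher, 30 were below 10 FPKM in QKI-cKO. The share of genes higher in QKI-cKO, 57.3%, was 58.5% and 60.7% under the limit of 1 FPKM and without predicted genes. The response element was at 0 in the 4 genes also with the shorter motif on either side, where 17.2% of coding genes held it. Matching lists by GENCODE symbol alone, chosen after seeing the data, left 7 metabolic genes in the table. No paired analysis was possible because the columns are pooled by group, and no replicate could be left out for the same reason. The planned search of whole gene spans was not run. With 1 pooled value per group and unknown depth, no error can be given for any level.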

Other observations

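Reductases that draw on NADPH, the product of the oxidative branch, were also looked up in the table. They were chosen after the values were seen, and no share is read from them. Of the 5 named, 3 were higher in QKI-cKO and 2 were lower. Their distance from *Pax7* was not computed, and a part of linkage to the Cre allele in their values was not tested. *Dhrs3*, described above, had the largest ratio of the 5, at 2.62. *Ptgr1*, which reduces prostaglandin and leukotriene products, was at 80.1 FPKM in QKI-ctrl against 103 FPKM in QKI-cKO. *Akr7a5*, an aldehyde reductase, was at 15.2 and 20.3 FPKM. *Blvrb*, the biliverdin reductase that acts downstream of haem breakdown, was at 46.4 and 33.4 FPKM, lower like *Hmox1*. *Hsd17b12*, a reductase of fatty acid elongation, was at 71.1 and 56.2 FPKM.

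Genes that handle other sugar phosphates or their products were read in the same way. *Slc37a2*, a sugar phosphate exchanger, was at 4.36 FPKM in QKI-ctrl against 5.85 FPKM in QKI-cKO. *Pmm1*, a phosphomannomutase, was at 38.2 and 29.4 FPKM. *Gch1*, which makes the first intermediate of tetrahydrobiopterin from GTP, was at 1.10 and 1.90 FPKM.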
